A study of Mus musculus with 78 samples.

Results

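The 10 genes described here are the cyclins Ccna2, Ccnb1, Ccnb2, Ccnb3, Ccne1, Ccne2, Ccnd1, Ccnd2, Ccnd3 and Ccno, found by their Entrez gene numbers in tables of expression in single cells of the mouse embryo. All 10 were listed in both tables, among 15218 genes in the 4-cell table and 15342 genes in the 8-cell table, of which 13604 were in both. The tables gave FPKM (fragments per kilobase of gene and per 1000000 fragments) for 24 blastomeres of the 4-cell stage and 26 of the 8-cell stage. Every embryo came from a cross of a homozygous strain with the Brainbow2.1 cassette at Gt(ROSA)26Sor with a homozygous CAG-cre/Esr1* strain. All blastomeres thus carried 1 copy of the cassette and 1 of a Cre recombinase that is driven by the broadly active CAG promoter and enters the nucleus on binding 4-hydroxytamoxifen. Embryos of the 2-cell stage were exposed to 4-hydroxytamoxifen for 2 h and cultured in KSOM medium to the 4-cell or 8-cell stage, so both stages shared the cassette, the Cre, the treatment and culture outside the mother. Each blastomere was its own library (Smart-seq2 with Nextera XT), with no pooling.

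The labels described 36 blastomeres of 9 embryos at the 4-cell stage and 31 blastomeres of 4 embryos at the 8-cell stage. Lineage was labelled A or B in 12 and 12 of the 4-cell blastomeres, from 6 embryos, and unresolved in 12. At the 8-cell stage it was A or B in 13 and 13, from 4 embryos, and unresolved in 5. The paper limited its analyses to blastomeres of resolved lineage, and the 24 and 26 columns equal those in number. The values are thus likely of that subset, chosen by whether reads of the cassette resolved the lineage. Column names of the tables matched none of the labels, and order or depth was not used to match columns. No value was thus tied to an embryo or a lineage. Each stage was therefore treated as 1 sample of cells. Levels are given as the lowest, median and highest blastomere, differences between the stages have no replicate check, and no test was made.

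Cyclins are the regulatory subunits that switch on cyclin-dependent kinases, and their rise and destruction order the steps of the cell cycle. D-type cyclins bind Cdk4 and Cdk6 in G1, E-type cyclins bind Cdk2 at entry into S phase, cyclin A2 binds Cdk2 and Cdk1 through S and G2 phase, and B-type cyclins bind Cdk1 to drive mitosis. At the end of mitosis the anaphase-promoting complex marks the A- and B-type cyclin proteins for destruction. Cleavage divisions of the embryo proceed without growth and begin on transcripts stored in the egg. The measurements below are of RNA, and cyclin protein, which cycles through regulated destruction, was not measured.

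The promoters of Ccnb1, Ccnb2 and Ccne1 are shown because these genes are among the 4 most abundant cyclins here and moved together or apart over blastomeres in the results. RefSeq's promoter table (GRCm38.p6) held 6 of the 10 genes, and each window runs 5′ to 3′ from 250 bases before the start of transcription to 50 bases from it. Capitals mark matches, on either strand, to CCAAT, which is the CCAAT box, to TTTGAA and TTTAAA, which are the letters of the cell cycle homology region and of its variant, and to TTGGCGC and TTCCCGC, which are cores of E2F sites. TTTAAA reads the same on both strands and was counted once.

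Ccnb1 (chr13:100786437-100786736, minus strand): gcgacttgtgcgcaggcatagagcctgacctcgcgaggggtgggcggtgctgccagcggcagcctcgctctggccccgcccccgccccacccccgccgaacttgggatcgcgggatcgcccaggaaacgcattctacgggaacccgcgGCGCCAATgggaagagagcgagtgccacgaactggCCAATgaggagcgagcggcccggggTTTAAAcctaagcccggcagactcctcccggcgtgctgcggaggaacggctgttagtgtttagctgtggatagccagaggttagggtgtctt
Ccnb2 (chr9:70421505-70421804, minus strand): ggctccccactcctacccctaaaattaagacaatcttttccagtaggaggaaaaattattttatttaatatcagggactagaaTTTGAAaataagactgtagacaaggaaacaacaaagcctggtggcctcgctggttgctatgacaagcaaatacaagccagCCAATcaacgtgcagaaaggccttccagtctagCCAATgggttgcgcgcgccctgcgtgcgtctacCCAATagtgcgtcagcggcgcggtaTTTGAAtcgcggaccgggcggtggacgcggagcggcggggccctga
Ccne1 (chr7:38107441-38107740, minus strand): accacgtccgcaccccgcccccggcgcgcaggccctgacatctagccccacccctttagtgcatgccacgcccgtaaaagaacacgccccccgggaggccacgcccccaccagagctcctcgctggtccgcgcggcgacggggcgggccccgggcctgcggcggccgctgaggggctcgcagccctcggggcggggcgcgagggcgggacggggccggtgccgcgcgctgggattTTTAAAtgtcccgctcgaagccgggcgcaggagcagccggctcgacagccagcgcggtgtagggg

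The Ccnb1 window held CCAAT at 99 and 67 bases before the start and TTTAAA at 42, and its TTGGCGC match, on the other strand, overlapped the CCAAT at 99. In the Ccnb2 window CCAAT lay at 87, 54 and 21 bases before the start, and TTTGAA at 167 bases before it and again 5 bases into the transcript. The Ccne1 window held TTTAAA at 15 bases before the start and none of the other letters searched. Of all 32851 windows in the table, 37.4% held CCAAT, 17.9% TTTGAA, 13.2% TTTAAA, 2.45% TTGGCGC and 4.6% TTCCCGC. A match describes the letters and is no site, and a window without one says only that these letters were not in it.

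Depth differed between blastomeres and has to be read beside the levels. The total number of fragments behind each column was recovered from the steps between its low values, since a gene of known length changes by a fixed amount with each fragment. These totals were 6.87 M to 16.9 M (M, 1000000 fragments; median 13.4 M) at the 4-cell stage and 2.33 M to 21.7 M (median 17.2 M) at the 8-cell stage. Genes above an FPKM of 1 numbered 3009 to 8276 and 3548 to 8078, and 3 blastomeres of each stage had fewer than 5000. No column was a copy of another, with rank correlations over genes between columns of 0.44 to 0.82 at the 4-cell stage and 0.60 to 0.83 at the 8-cell stage. Summed over 10 markers of cleavage-stage blastomeres, the FPKM was 1463 to 5628 and 3144 to 10804, led by Dppa3, which had medians of 3658 and 3260. Of these markers 9 had a median above 1 at the 4-cell stage and 7 at the 8-cell stage, with Ooep at 0.65 and 0.0, Nlrp5 at 5.06 and 0.12, and Tle6 at 2.69 and 0.03. Of 8 cumulus or granulosa cell markers the sum reached 3.06 and 1.66 at most, of 5 fibroblast or other somatic cell markers 4.93 and 5.77, and the 3 blood markers were listed in neither table.

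**Figure D1:**
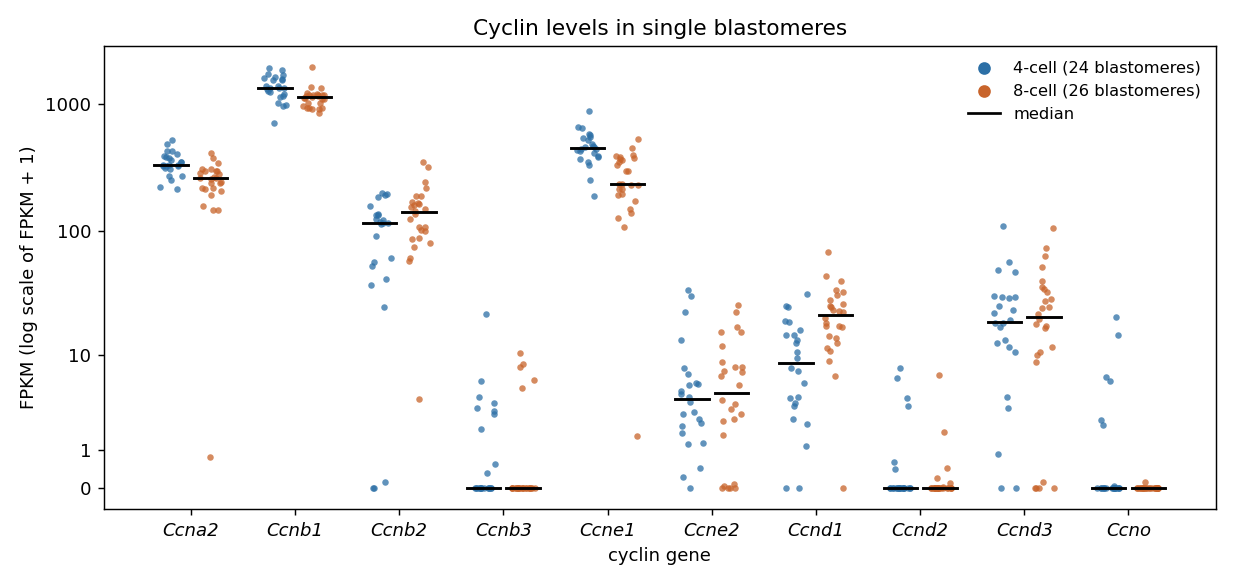
FPKM of each cyclin on a log scale of FPKM + 1, with 1 point per blastomere, blue for the 24 of the 4-cell stage and orange for the 26 of the 8-cell stage, and black bars for the medians. Ccnb1 lies highest in both stages, Ccne1 is lower and Ccnd1 higher at the 8-cell stage, and the medians of Ccnb3, Ccnd2 and Ccno are 0.

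The cyclins spanned the whole range of expression, and their order was much the same in both stages. By median FPKM, Ccnb1, Ccne1, Ccna2 and Ccnb2 led at the 4-cell stage and Ccnb1, Ccna2, Ccne1 and Ccnb2 at the 8-cell stage, followed by Ccnd3, Ccnd1 and Ccne2, with Ccnd1 just ahead of Ccnd3 at the 8-cell stage, and with medians of 0 for Ccnb3, Ccnd2 and Ccno. The order of Ccne1 and Ccna2 at the 8-cell stage and of Ccnd1 and Ccnd3 there was within the spread of blastomeres, since Ccne1 was above Ccna2 in 12 of 26 and Ccnd1 above Ccnd3 in 11 of 26. By contrast, Ccnb1 was above Ccna2 and above Ccnb2, and Ccne1 above Ccne2, in every blastomere of both stages. A blastomere had 3 to 9 of the 10 cyclins above an FPKM of 1, with a median of 7 in each stage.

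Of the 10 cyclins, 1 was past 2-fold between the stages by median, Ccnd1, which was higher at the 8-cell stage. Over the 13041 genes listed in both tables that passed an FPKM of 1 somewhere, 5.45% were at least 2-fold higher at the 8-cell stage and 10.2% at least 2-fold lower, 15.7% in either direction. These calls, 711 higher and 1330 lower, all lay among the 7131 genes with a median above 1 in a stage. They are a larger share of those genes. By the mean of log2 values in place of the median 3 of the 10 cyclins were past 2-fold, beside 11.8% of all genes. Of these 3 calls Ccnd1 alone remained, at 1.16, without the 6 blastomeres with fewer than 5000 genes above 1, Ccnb2 then being 0.67 and Ccne1 -0.74. With scaling to the 75th percentile no cyclin was past 2-fold, beside 16.1%. All differences are log2 of the 8-cell median over the 4-cell median with 1 added to each FPKM, and they compare tables deposited separately. The median of that difference was 0.00 over all 13041 genes and -0.11 over the 7131 genes with a median above 1 in a stage.

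Ccnb1 (Entrez 268697, chr13:100778739-100786486, minus strand) encodes cyclin B1, the main partner of Cdk1 in mitosis, and stood at rank 8 of all genes by median at the 4-cell stage and at rank 24 at the 8-cell stage. Its FPKM ran from 710 through a median of 1332 to 1884 in 4-cell blastomeres. At the 8-cell stage it ran from 851 through 1119 to 1932, with 24 of 26 blastomeres below the 4-cell median and a log2 difference of -0.25. With scaling to the 75th percentile the difference was -0.57. The ranges overlapped widely, and 1 blastomere of the 8-cell stage was above all 24 of the 4-cell stage. Ccnb1 was also among the steadiest of the abundant genes from cell to cell. Its SD of log2(FPKM + 1) over blastomeres was 0.33 at the 4-cell stage, rank 28 from the lowest among 968 genes with a median of at least 100, and 0.24 at the 8-cell stage, rank 9 among 942. Genes were not matched for level in such ranks, here or below, and the part of level in them was not tested. Ccnb1 alone made up 41.7% to 72.2% of the summed cyclin FPKM of a 4-cell blastomere (median 58.9%) and 50.7% to 84.5% at the 8-cell stage (median 59.7%).

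Ccna2 (Entrez 12428, chr3:36564865-36573038, minus strand), the cyclin of S and G2 phase, followed the same pattern at a lower level. It ran from 215 through 330 to 518 FPKM at the 4-cell stage and from 0.76 through 261 to 409 at the 8-cell stage. The log2 difference was -0.34, with 23 of 26 blastomeres below the 4-cell median. By the mean of log2 values it was -0.70, and with scaling to the 75th percentile -0.55. The next lowest 8-cell blastomere had 148, so 0.76 stood apart from all others. At the 4-cell stage Ccna2 had an SD of 0.31, rank 22 of the 968 abundant genes. At the 8-cell stage the rank was 888 of 942 with the blastomere at 0.76 and 194 of 941 without it, where the SD was 0.38. Ccna2 overlaps Exosc9, and the library kit keeps no strand, so reads of the overlap cannot be told apart.

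Ccnb2 (Entrez 12442, chr9:70407689-70421554, minus strand) encodes cyclin B2, which also partners Cdk1, and it varied far more between cells than Ccnb1. At the 4-cell stage its FPKM ran from 0.0 through 116 to 201, and at the 8-cell stage from 3.94 through 141 to 352, a log2 difference of 0.28. The 4-cell stage had 2 blastomeres listed at 0 and 1 more below 1, whereas all 26 blastomeres of the 8-cell stage were above 1. Both 4-cell blastomeres at 0 were among the 3 of that stage with fewer than 5000 genes above 1, as was the 8-cell blastomere at 3.94 in its own. The SD of log2(FPKM + 1) ranked 931 of 968 at the 4-cell stage and 856 of 942 at the 8-cell stage. The difference between stages depended on the summary, and the mean of log2 values gave 1.07 in place of 0.28. Leaving out either 4-cell blastomere at 0 took that mean to 0.81, below 2-fold.

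Ccnb3 (Entrez 209091, chrX:6979652-7041635, minus strand), a B-type cyclin known for its part in oocyte meiosis, was below 1 in most cells. It was above an FPKM of 1 in 8 of 24 blastomeres at the 4-cell stage (33.3%, exact 95% binomial interval 15.6% to 55.3%) and in 5 of 26 at the 8-cell stage (19.2%, 6.55% to 39.4%). Such intervals cover counting error only, over cells that share embryos. The blastomeres above 1 held at least 86 fragments at the 4-cell stage and at least 400 at the 8-cell stage, and 2 more of the 4-cell stage held some below an FPKM of 1. The highest values were 21.7 and 10.4 FPKM. Of the 5 blastomeres of the 8-cell stage above 1, 3 were in columns headed NA, which carry no blastomere name.

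Ccne1 (Entrez 12447, chr7:38097984-38107490, minus strand) encodes cyclin E1, which activates Cdk2 for entry into S phase, and had the largest difference toward lower levels of the 10 cyclins. Its FPKM ran from 189 through 450 to 879 at the 4-cell stage and from 1.54 through 236 to 531 at the 8-cell stage. All but 1 of the 26 blastomeres of the 8-cell stage were below the 4-cell median, and 6 were below every 4-cell blastomere. The log2 difference was -0.93, or 1.91-fold lower by the medians themselves, which is short of 2-fold. It lay at percentile 11.1 of the differences over all genes tested. Without the blastomere at 1.54 the difference of medians was -0.92. By the mean of log2 values it was -1.05, past 2-fold, but -0.79 without that blastomere, so this call rested on 1 library.

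Ccne2 (Entrez 12448, chr4:11190433-11204779, plus strand), the other E-type cyclin, stood below Ccne1 in every cell. It ran from 0.0 through 3.95 to 34.1 FPKM at the 4-cell stage and from 0.0 through 4.61 to 26.1 at the 8-cell stage, a log2 difference of 0.18 with ranges that overlapped almost completely. Above an FPKM of 1 were 21 of 24 and 20 of 26 blastomeres. The sign of its difference was not stable, being -0.09 without the 6 blastomeres under 5000 genes and -0.02 by the mean of log2 values, but 0.71 without the columns headed NA and 0.36 without the 8-cell blastomere of the lowest total. Ccne2 overlaps Ints8 and A630034I12Rik, and how reads of the overlap were counted was not stated, so its level may be affected.

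The D-type cyclins link growth factor signals to Cdk4 and Cdk6, and among them Ccnd1 differed most between the stages. Ccnd1 (Entrez 12443, chr7:144929931-144939831, minus strand) ran from 0.0 through 8.50 to 31.8 FPKM at the 4-cell stage and from 0.0 through 21.4 to 68.5 at the 8-cell stage. Of the 26 blastomeres of the 8-cell stage 24 were above the 4-cell median and 5 above every 4-cell blastomere, yet most values of the stages still overlapped. The log2 difference was 1.23, 2.51-fold by the medians themselves, at percentile 96.2 of all genes tested. Without the 6 blastomeres under 5000 genes it was 1.03. When each blastomere was scaled to the 75th percentile of its own values it was 0.78, below 2-fold, so the call rested on the scaling of the FPKM. Ccnd1 overlaps the gene named LTO1 in RefSeq's annotation.

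Ccnd3 (Entrez 12445, chr17:47505051-47599689, plus strand) ran from 0.0 through 18.96 to 111 FPKM at the 4-cell stage and from 0.0 through 20.7 to 106 at the 8-cell stage. With a log2 difference of 0.12, and 12 of 26 blastomeres of the 8-cell stage below the 4-cell median, its ranges overlapped almost completely, and the sign turned to -0.15 without the 6 blastomeres under 5000 genes. It was above 1 in 21 of 24 and 21 of 26 blastomeres. Ccnd2 (Entrez 12444, chr6:127125162-127152188, minus strand) was above 1 in 4 of 24 blastomeres (16.7%, exact interval 4.74% to 37.4%) and in 2 of 26 (7.69%, 0.946% to 25.1%), with highest values of 7.74 and 6.64. Its cells above 1 held 219 fragments or more in both stages. It was listed at 0 in 18 and 19 blastomeres, and the remaining few held some fragments below an FPKM of 1. Ccnd2 overlaps 9330179D12Rik, and Ccnd3 overlaps Bysl and Gm41590.

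Ccno (Entrez 218630, chr13:112987802-112990778, plus strand) is known for the multiplication of centrioles in multiciliated cells. At the 4-cell stage 6 of 24 blastomeres were above 1 (25%, exact interval 9.77% to 46.7%), up to 20.7 FPKM and 465 fragments. At the 8-cell stage none of the 26 was, which allows a share of up to 11.5% by the rule of 3 counts over the 26 (the exact interval reaches 13.2%), and the only fragments were 5 in 1 blastomere. Ccnb3, Ccnd2 and Ccno together were seen patchily. None of the 3 was above 1 in 9 of 24 blastomeres at the 4-cell stage and in 20 of 26 at the 8-cell stage, 1 of them in 12 and in 5, and 2 or more in 3 and in 1. Pseudogenes that could share reads with cyclins, Ccnb1-ps, Ccnb2-ps and Ccnd3-ps, were listed in neither table.

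Within a single blastomere the ratio of 2 cyclins does not depend on the total used for FPKM, apart from the 1 added to each value. Ccnd1 over Ccne1, a G1 cyclin against the S-phase entry cyclin, had a median log2 ratio of -5.11 at the 4-cell stage (from -8.04 to -3.49) over the 22 blastomeres with both above 0, and of -3.74 at the 8-cell stage (from -5.02 to -1.63) over 25. These 25 were above the 4-cell median, although the ranges overlapped. Left out were 2 and 1 blastomeres with Ccnd1 at 0, whose ratio only reflects the added 1. Ccnd1 over Ccnd3, over 21 and 22 blastomeres with both above 0, had a median of -1.55 and then -0.36. Ccne1 over Ccna2 was lower at the 8-cell stage, with a median of 0.43 and then -0.04, and 16 of 26 blastomeres lay below the 4-cell median. The lead of Ccnb1 over Ccnb2 was a median of 12.1-fold over the 22 blastomeres of the 4-cell stage with both above 0 and 7.86-fold over the 26 of the 8-cell stage.

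**Figure D2:**
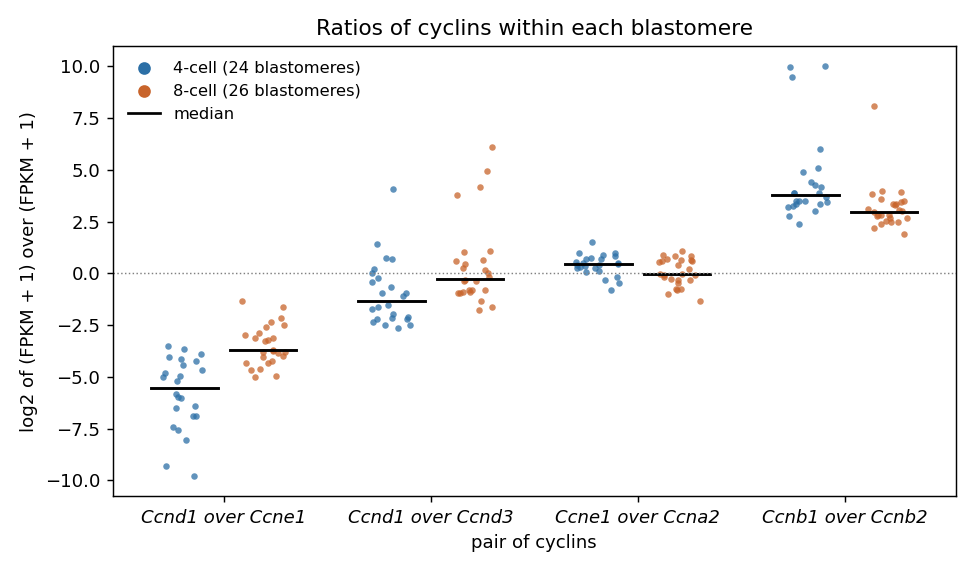
Log2 ratios of pairs of cyclins within each blastomere, with 1 added to each FPKM, blue for the 4-cell and orange for the 8-cell stage, black bars for medians and a dotted line at equal levels. Blastomeres with a cyclin at 0 are plotted too, and their ratio only reflects the added 1. Over blastomeres with both above 0, Ccnd1 over Ccne1 has medians of -5.11 and -3.74, while Ccne1 over Ccna2 goes from 0.43 to -0.04.

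The blastomere with the fewest fragments, 2.33 M with 3548 genes above 1 at the 8-cell stage, departed from all others in its cyclins. Its Ccnb1 of 1932 and Ccnb2 of 352 were the highest of the stage. At the same time Ccna2 was at 0.76 and Ccne1 at 1.54, values that rest on 6 and 7 fragments, and Ccne2 and all D-type cyclins were listed at 0. Its Ccnb1 rested on 10444 fragments. Fragments of amplified cDNA are not independent molecules, and the part of RNA capture, amplification and low depth in these values was not tested. Among 4-cell blastomeres the one with 3009 genes above 1 had Ccnb2, Ccne2 and all D-type cyclins at 0 with Ccne1 at 644. Another with 3699 genes had Ccnb2 and Ccnd1 at 0 with the highest Ccne1 of the stage, 879, and a Ccna2 of 487. The third of that stage, with 4939 genes, had Ccnb2 at 126, Ccnd1 at 16.02, Ccne1 at 436 and the highest Ccnb1 of the stage, 1884.

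Correlation over blastomeres addressed whether cyclins of one phase go up and down together from cell to cell. The 7 cyclins above an FPKM of 1 in at least 12 blastomeres of each stage form 21 pairs, and Spearman's rho is given as a description, over 24 and 26 blastomeres that share embryos and differ in depth. At the 4-cell stage 5 of the 21 pairs had a rho of at least 0.5 in size, at the 8-cell stage none. Over all pairs of the 6130 genes that met the same rule, 6.76% reached that size at the 4-cell stage and 3.15% at the 8-cell stage, so rho was wider at the 4-cell stage for genes in general. The median over pairs was 0.07 at the 4-cell stage and 0.11 at the 8-cell stage.

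**Figure D3:**
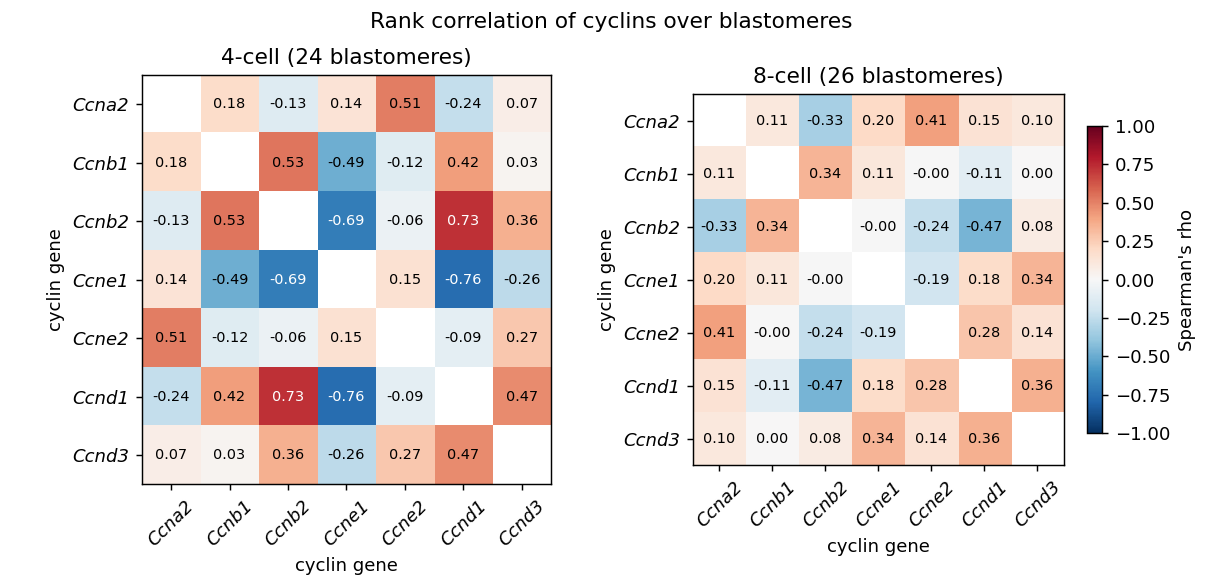
Spearman's rho between 7 cyclins over 24 blastomeres of the 4-cell stage (left) and 26 of the 8-cell stage (right), red for positive and blue for negative. The 4-cell panel sets Ccne1 against Ccnd1 at -0.76 and against Ccnb2 at -0.69, and neither is seen at the 8-cell stage, where the values are 0.18 and -0.00.

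The A- and B-type cyclins, which peak one after the other toward mitosis, were not tightly tied. Ccnb1 and Ccnb2 had a rho of 0.53 at the 4-cell stage and 0.34 at the 8-cell stage, positive under all alternatives, from 0.42 to 0.66 and from 0.16 to 0.49. Ccna2 with Ccnb1 had 0.18 and 0.11, and Ccna2 with Ccnb2 -0.13 and -0.33. The median of these 3 pairs was 0.18 and 0.11. At the 8-cell stage that median was -0.31 with Pearson's r of log2(FPKM + 1), and rho was 0.25 when the blastomere with Ccna2 at 0.76 was left out.

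The strongest relations of the 4-cell stage joined cyclins of different phases. Ccne1 was low where Ccnd1 was high (rho -0.76) and where Ccnb2 was high (-0.69), and Ccnb2 and Ccnd1 were high together (0.73). With the 3 blastomeres under 5000 genes left out these values were -0.70, -0.60 and 0.64, and with the number of expressed genes regressed out of the ranks they were -0.69, -0.59 and 0.60. That number itself moved with the same cyclins at the 4-cell stage, with rho of 0.57 for Ccnd1, 0.56 for Ccnb2, 0.50 for Ccnd3 and -0.47 for Ccne1. The part of other measures of library quality was not tested. Since no blastomere was tied to an embryo here, differences between embryos and between cells of an embryo were not separated in these relations. None of the 3 relations was found at the 8-cell stage, where Ccne1 with Ccnd1 was 0.18, Ccne1 with Ccnb2 was -0.00 and Ccnb2 with Ccnd1 was of opposite sign at -0.47. The difference between the stages was not tested.

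**Figure D4:**
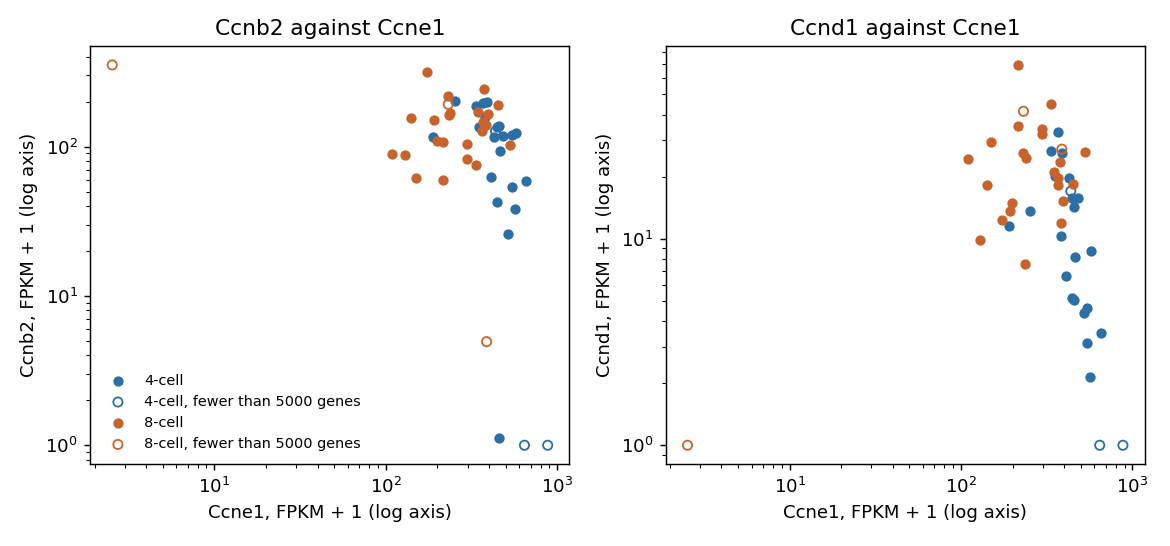
Ccnb2 (left) and Ccnd1 (right) against Ccne1, as FPKM + 1 on log axes, with 1 point per blastomere, blue for the 4-cell and orange for the 8-cell stage, and open circles for blastomeres with fewer than 5000 genes above an FPKM of 1. In 4-cell blastomeres both genes go down as Ccne1 goes up (rho -0.69 and -0.76), while the 8-cell points show no such slope and 1 of them lies apart at a Ccne1 of 1.54.

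Other relations were positive in both stages. Ccna2 with Ccne2 had a rho of 0.51 and 0.41, and remained between 0.34 and 0.60 under all alternatives in both stages. Ccnd1 with Ccnd3 had 0.47 and 0.36, but 0.26 at the 4-cell stage with the number of expressed genes regressed out, and 0.19 at the 8-cell stage without blastomeres under 5000 genes. Ccne1 and Ccne2, although both partner Cdk2 at entry into S phase, had 0.15 and -0.19. The alternatives took the 8-cell value from -0.44 to 0.17. For scale, the middle 90% of rho with the other 6129 genes at the 4-cell stage lay between -0.35 and 0.36 for Ccna2, -0.43 and 0.55 for Ccnb1, -0.51 and 0.68 for Ccnb2, -0.60 and 0.45 for Ccne1, -0.30 and 0.35 for Ccne2, and -0.49 and 0.64 for Ccnd1. The rho of Ccnb1 with Ccnb2, 0.53, was within this range for both genes, whereas those of Ccnd1 with Ccne1 and with Ccnb2, and of Ccnb2 with Ccne1, were outside it for both. At the 8-cell stage the ranges were -0.32 to 0.39 for Ccna2, -0.42 to 0.38 for Ccnb1, -0.43 to 0.44 for Ccnb2, -0.36 to 0.44 for Ccne1, -0.38 to 0.36 for Ccne2 and -0.28 to 0.33 for Ccnd1. The rho of Ccnb2 with Ccnd1 there, -0.47, was the largest in size of that stage and outside the range of both genes. The rho of Ccna2 with Ccne2 was above the range of both genes in both stages. These ranges were not run under alternatives. Without the 8-cell blastomere of the lowest total, Ccna2 with Ccne2 had 0.35 at that stage, below the upper ends for both genes. Ccnb2 with Ccnd1 then had -0.40, inside the range for Ccnb2. At the 4-cell stage, with the number of expressed genes regressed out, Ccnb2 with Ccnd1 had 0.60, inside the range of both genes. Ccnb2 with Ccne1 then had -0.59, inside the range for Ccne1, while Ccne1 with Ccnd1, at -0.69, stayed outside both. Without the 4-cell blastomeres under 5000 genes, Ccnb2 with Ccnd1 had 0.64, inside the range for Ccnb2. Ccnb2 with Ccne1 then had -0.596, inside the lower end of -0.602 for Ccne1.

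Cyclins were also set against the phases by the mean log2(FPKM + 1) of 18 S-phase genes, such as the Mcm helicase subunits, Pcna and Rrm2, and of 21 G2/M genes, such as Top2a, Aurka and Plk1. Ccna2 had a rho of 0.10 with the S-phase mean and 0.13 with the G2/M mean at the 4-cell stage, and 0.21 and 0.31 at the 8-cell stage. Ccnb1 had 0.29 and 0.16, then -0.37 and -0.01, and Ccnb2 0.23 and 0.20, then -0.48 and -0.24. Ccne1 had -0.42 and -0.02, then -0.27 and 0.14. Ccnd3 had 0.23 and 0.38, then -0.33 and -0.09. The lists went up together over blastomeres, with a rho of 0.39 and 0.57 between them, and with the number of genes above 1 the G2/M mean had 0.53 and 0.68.

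The genes most like each cyclin were ranked by the lower of the rho values of the stages, over 6130 genes above 1 in at least 12 blastomeres of each stage. For the mean over Ccna2, Ccnb1 and Ccnb2 they were Erh (0.45 and 0.40), Med9, Rps3a1, Ubb-ps and Mylpf, and for Ccne1 with Ccne2 they were Rmi1 (0.38 and 0.37), Mterf3, Rab20, Prpf4b and Ccna2. For Ccnd1 they were Cope (0.64 and 0.55), Timm10b, Tsacc, Rasgrp4 and Rabggta, and for Ccnd3 they were Casp6 (0.60 and 0.57), Slc25a22, Ttl, Prmt7 and Gadd45gip1. Of the 5 genes for the A- and B-type cyclins 0 to 3 stayed under the alternatives, which were not run for the other cyclins.

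One by one, a choice made after values were seen, Ccnb1 was most like Eif3m (0.70 and 0.65), Ran (0.79 and 0.63), Zfp706, Cnbp (0.80 and 0.61) and Pomp, which are abundant genes of protein synthesis, nuclear transport and the proteasome among others. Among the genes most like Ccnb2 were Dnajc15 (0.72 and 0.68), Aurkaip1 (0.71 and 0.66), Pdpn and Cycs. Ccna2 was most like Esco2 (0.49 and 0.52), an acetyltransferase that sets sister chromatid cohesion in S phase, followed by Zmym1, Cnot10, Scamp2 and Polr2b. Ccne1 was most like Fbxo30 (0.73 and 0.49), followed by Srsf6, Ncor1, Rmi1 and Stub1. Ccne2 was most like Trappc13 (0.45 and 0.43), followed by the kinase Aurkb (0.43 and 0.48), Ccna2 (0.51 and 0.41), Ubfd1 and Pbk. Ccnb2 had 77 genes with a rho of at least 0.5 in both stages and Ccnb1 had 24, while Ccna2, Ccne1 and Ccne2 had 0.

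The partners and regulators of the cyclins were counted over 55 genes in 7 lists, of which 54 could be compared and Ccna1, the germ cell A-type cyclin, was listed in neither table. At the 8-cell stage 6 of the 54 were at least 2-fold higher and 7 at least 2-fold lower, beside 5.45% and 10.2% over all genes. Among the 7131 genes with a median above 1 in a stage 711 were higher and 1330 lower, which are larger shares. The list of other cyclins held 2 of the higher genes and none of the lower. Ccng1 had medians of 3.71 and 9.59, and Ccnk 2.69 and 8.95. Of the 6 partners none was past 2-fold. Cdk1, the kinase of the A- and B-type cyclins, had a median of 173 FPKM at the 4-cell stage and 181 at the 8-cell stage. Cdk2, the partner of Ccne1, had 130 and 84.9, and Cdk4, the partner of the D-type cyclins, had 142 and 212, while Cdk6 had a median of 0 in both.

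Of 7 inhibitors of the kinases 2 were past 2-fold, both lower at the 8-cell stage, Cdkn1a (p21) with 125 and 41.9 and Cdkn2d (p19) with 47.8 and 11.8, and the other 5 had medians of 0 in both stages. Of the 2 inhibitory kinases Wee1, which holds Cdk1 inactive, had 17.8 and 4.30, and Pkmyt1 10.7 and 12.97. Cdc25c, the phosphatase that removes this brake, had 47.9 and 15.2, a difference in the same direction as Wee1, whereas Cdc25a had 14.05 and 15.3.

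Among 10 genes of cyclin destruction 2 were past 2-fold, both higher. Fzr1 (Cdh1), which directs the anaphase-promoting complex in G1, had 2.10 and 7.32, and Ube2s, which extends ubiquitin chains for it, had 30.7 and 81.6. Cdc20, which directs the complex in mitosis, was abundant in both stages with 882 and 590. Fbxw7, which recognises cyclin E, had a median of 0 in both stages. Of 13 genes of the Rb and E2F family, which act below the D-type cyclins, 2 were past 2-fold higher and 3 lower. The lower ones were Rb1 with 7.22 and 0.0, E2f5 with 15.7 and 0.03, and E2f1 with 1.73 and 0.07, while E2f4 had 3.61 and 10.8 and Rbl1 0.07 and 1.44.

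**Figure D5:**
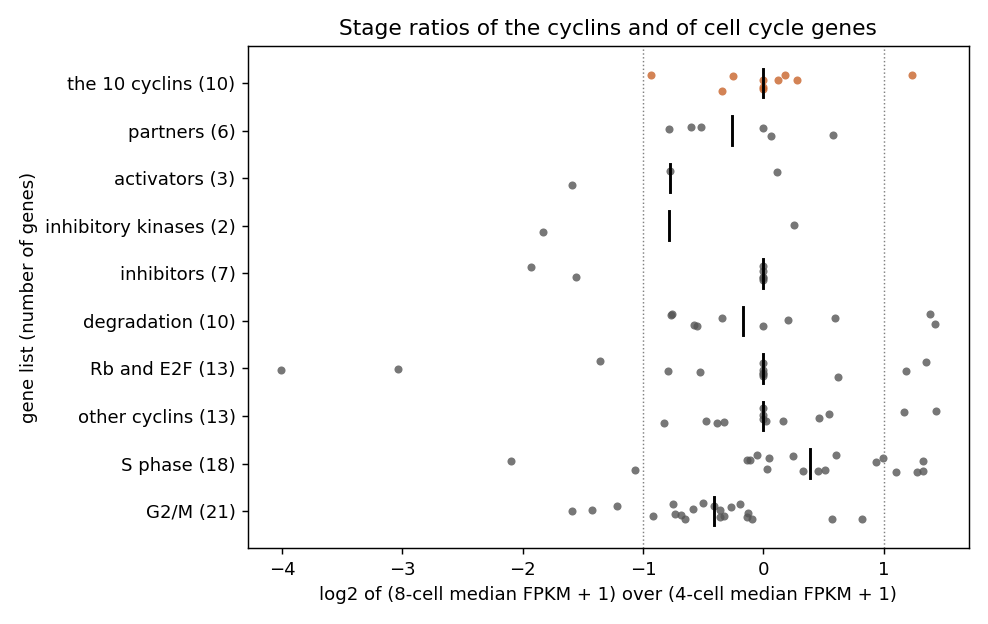
Log2 of the 8-cell over the 4-cell median, with 1 added to each FPKM, for the 10 cyclins (orange) and for the lists of cell cycle genes (grey), with 1 point per gene, black bars for list medians and dotted lines at 2-fold. The S-phase list lies mostly above 0 with a median of 0.39 and the G2/M list mostly below 0 with a median of -0.41, while among the cyclins Ccnd1 at 1.23 is beyond the dotted lines.

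The phase lists were compared in the same way. Of the 18 S-phase genes 13 were higher at the 8-cell stage by any amount, 4 past 2-fold (Mcm4, Mcm5, Mcm7 and Fen1) and 2 lower past 2-fold (Gins2 and Cdc45), with a median log2 difference of 0.39. Mcm5 had 14.8 and 38.5, and Mcm7 51.2 and 126. Of the 21 G2/M genes 19 were lower, 3 of them past 2-fold (Aurkb, Cenpf and Cdc25c), with a median of -0.41. Over the 7131 genes with a median above 1 in a stage the median was -0.11, with 44.6% above 0 and 55.4% below. Over all genes tested 5.45% were past 2-fold higher and 10.2% lower. All these calls, 711 higher and 1330 lower, lay among the 7131 genes, of which they are a larger share. Beside the lists, the E-type cyclins were -0.93 for Ccne1 and 0.18 for Ccne2, and the A- and B-type cyclins -0.34 for Ccna2, -0.25 for Ccnb1 and 0.28 for Ccnb2. Blastomeres were not staged within the cycle, so the phase at collection and the developmental stage cannot be told apart.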

How the data were processed

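Single blastomeres were sequenced as Smart-seq2 libraries with paired reads of 100 nt. The authors aligned reads to mm10 with STAR 2.5.1b, kept uniquely aligned reads, counted them on RefSeq genes with HTSeq and deposited FPKM values per gene, 1 table per stage. Gene lengths and totals behind the FPKM were not given in the sources used here. Of the 50 columns, 5 in the 8-cell table are headed NA and were kept, and the stage of a table is that of its name. Tables of repeats were not used here. Genes were named by Entrez number through RefSeq (15200 and 15320 matched), and positions and exon lengths are from GRCm38.p6.

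Totals were recovered from the steps of low values, which then gave whole fragments, within 0.1, for 90.6% to 96.4% of them in a column. Fragments of a gene are its FPKM times that total and its RefSeq exon length. No count test was run, since each stage was treated as 1 sample. Differences between stages are of medians with a pseudocount of 1, called at 2-fold. Named genes were the 10 cyclins, cell cycle lists and the 5 genes most like each cyclin or pair. The members and lists were chosen with earlier results of these data known, and ratios within a blastomere and lists for single A-, B- and E-type cyclins were added after values were seen. A gene that this rule names is not reported here. The steps were tested on simulated data. Python 3.11.15, pandas 2.3.3, numpy 2.4.6, scipy 1.17.1 and matplotlib 3.10.9 were used.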

Additional observations from a re-analysis of the deposited data

How the results depend on the processing

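Over 60 alternative values of the cyclins' stage differences the 1 called difference, of Ccnd1, kept its sign, and 56 stayed within the spread of blastomeres and on their side of 2-fold. The cyclins past 2-fold numbered 3 (Ccnb2, Ccne1 and Ccnd1) by the mean of log2 values, of which Ccnd1 alone remained without blastomeres under 5000 genes, and 0 with scaling to the 75th percentile, against 1. That scaling also took Ccnb1 to -0.57. The median correlation of the A- and B-type cyclins at the 8-cell stage was -0.31 with Pearson's r and 0.25 without blastomeres under 5000 genes, against 0.11, and leaving out each blastomere in turn gave 0.03 to 0.25, and 0.08 to 0.28 at the 4-cell stage. Of the 5 genes most like these cyclins 0 stayed with Pearson's r, 2 with the number of expressed genes regressed out, 1 without the columns headed NA, 2 without blastomeres under 5000 genes and 3 without the 8-cell blastomere of the lowest total. Of 252 alternative values of single correlations 63 lay outside the range from leaving out single blastomeres, or were ends of a range that crossed 0. The causes were not tested. Leaving out the blastomere of the lowest total, the mean of log2 values without gene-poor blastomeres, all alternatives for single pairs, and leaving cyclins at 0 out of ratios, were added after seeing the data. No paired analysis was possible because columns carry neither an embryo nor a replicate number. Column order and depth were not used to assign embryos, so the planned test over embryos, and leaving out each embryo, were not run. Stage differences of the other cell cycle genes were not run under alternatives. In the 8-cell blastomere of 2.33 M fragments Ccna2 and Ccne1 rest on 6 and 7 fragments.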
